A study of Mus musculus with 18 samples.

Results

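The genes described here encode the T cell receptor (TCR) complex and the kinases, adaptors, enzymes and inhibitors that act close to it. They were chosen by name as a list of 46 genes, and every probe annotated with one of those names was taken. Of these genes 45 were matched to a probe, and 43 had a probe whose detection p-value was under 0.05 on at least 3 arrays, of 14165 gene symbols with such a probe in the whole data set. The kinase gene Lck was not analysed here, and Ptpn2 and Dok1 did not pass the filter. RNA came from thymocytes of C57Bl/6N mice aged 4 to 6 weeks, taken as double positive for CD4 and CD8 (DP) or as single positive for one of them (CD4 SP or CD8 SP). One set of mice was wild type (wt). In the other (cKO), Cre recombinase driven by FoxN1 had deleted exon 3 of Gpr177, now named Wls, which encodes a carrier needed for WNT secretion. FoxN1 is active in thymic epithelium, so the thymocytes on the arrays were not the cells targeted by the deletion, and the arrays give no check of it. Each of the 6 groups had 3 Illumina BeadChip arrays numbered 1 to 3, and arrays of one number shared a chip.

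The TCR recognises peptides bound to MHC molecules but has no enzyme activity of its own. CD3 and CD247 chains carry the motifs that Lck and Fyn phosphorylate, and ZAP-70 binds these motifs and phosphorylates the adaptors LAT and SLP-76. The adaptors gather phospholipase C and nucleotide exchange factors, which open the calcium, RAS and NF-kB branches. Inhibitory ligases, phosphatases and adaptors hold the signal back. In the thymus the strength of this signal decides whether a DP cell dies, is selected, or becomes a CD4 SP or a CD8 SP cell.

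All values below are log2 intensities after background correction and quantile normalization, and values in a row are arrays 1, 2 and 3. A ± after a group mean is the standard deviation of 3 arrays, and after a difference it is its standard error. Differences were tested with limma across all 26676 probes that passed the detection filter, and a gene was called where its Benjamini-Hochberg adjusted p was under 0.05. The labels do not say that the arrays of a group came from separate animals, so p-values measure the spread between these samples, which may be technical. Between 19190 and 21262 probes were detected per array. The median bead intensity before normalization averaged 169.0 in wt DP, 172.8 in wt CD4 SP, 221.1 in wt CD8 SP, 181.6 in cKO DP, 220.1 in cKO CD4 SP and 253.0 in cKO CD8 SP arrays, so it was higher in CD8 SP than in the other populations of the same genotype. Of the markers that define the populations, Cd8b1 averaged 11.69, 7.87 and 10.91 in wt mice (order DP, CD4 SP, CD8 SP), and Cd4 averaged 8.46, 7.69 and 6.71. Cd8a passed detection on 2 of the 3 wt DP arrays but on none of the wt CD8 SP arrays. Summed linear levels of 6 measured macrophage and dendritic cell markers, of 10 listed, were 506 to 599 in wt DP, 306 to 419 in wt CD4 SP and 338 to 422 in wt CD8 SP cells. Siglech, the highest of the 6 in wt DP, averaged 8.04, 7.09 and 6.30 in log2. Siglech, Cd68 and Fcgr3 averaged lower in wt CD8 SP than in wt DP cells, and Itgax, C1qa and Clec9a higher. The median log2 difference of the 6 was 0.06 in that comparison. The 5 measured markers of double-negative thymocytes, of 6 listed, summed to 218 to 287, 402 to 494 and 412 to 509. These markers did not move as a set. By log2 mean, with populations ordered as above, Dtx1 gave 6.59, 7.50 and 7.62 and Cd44 gave 5.31, 7.10 and 5.66. Hes1 gave 5.12, 5.42 and 5.91, and Kit, which no wt DP array detected, 4.39, 4.88 and 5.49. Erg gave 5.54, 5.17 and 6.21, so it was lower in wt CD4 SP than in wt DP cells. Psmb11 of thymic epithelium, Klrb1c of NK cells and Hbb-b1 of erythroid cells were detected on all 18 arrays, with group means of 5.92 to 7.28. Aire and Ctsl of thymic epithelium, Cd79b and Blnk of B cells and Sox13 and Blk of gamma delta T cells were detected on fewer arrays, with group means of 4.62 to 7.28. The part of these cells, and of the background level, in the results was not tested except where a value is given.

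In wt mice, CD4 SP cells differed from DP cells in 9 of the 43 measured genes, 4 higher and 5 lower (limma, adjusted p under 0.05). Over all 14165 gene symbols 6.23% were called in that comparison, 3.13% higher and 3.09% lower. CD8 SP cells differed from DP cells in 13 genes, 1 higher and 12 lower, against 7.76% of all gene symbols, 3.66% higher and 4.09% lower. CD4 SP cells differed from CD8 SP cells in 5 genes, all of them higher in CD4 SP, against 3.53% of all gene symbols, 1.5% higher and 2.03% lower. As shares of the 43 genes, the calls were 20.9%, 30.2% and 11.6% in these 3 comparisons. The comparisons share arrays in pairs. Every one of these calls had the same sign on each of the 3 chips, and in each the compared groups did not overlap. The calls were chosen by p on these same arrays, which favours such agreement, so it adds no separate support. With each array's median intensity as a covariate, the counts were 10, 8 and 3, and the wt CD8 SP against DP calls of Themis, Grap2, Dgka, Cbl and Sla2 and the wt CD4 SP against CD8 SP calls of Tespa1, Dgka and Orai1 were lost. In cKO mice it ended the CD8 SP against DP calls of Themis, Cd247, Dgka, Nfatc3, Cbl and Sla2 and the CD4 SP against DP calls of Trat1 and Ptpn6. Fewer cells of a kind and less RNA per cell cannot be told apart in such bulk samples.

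**Figure D1:**
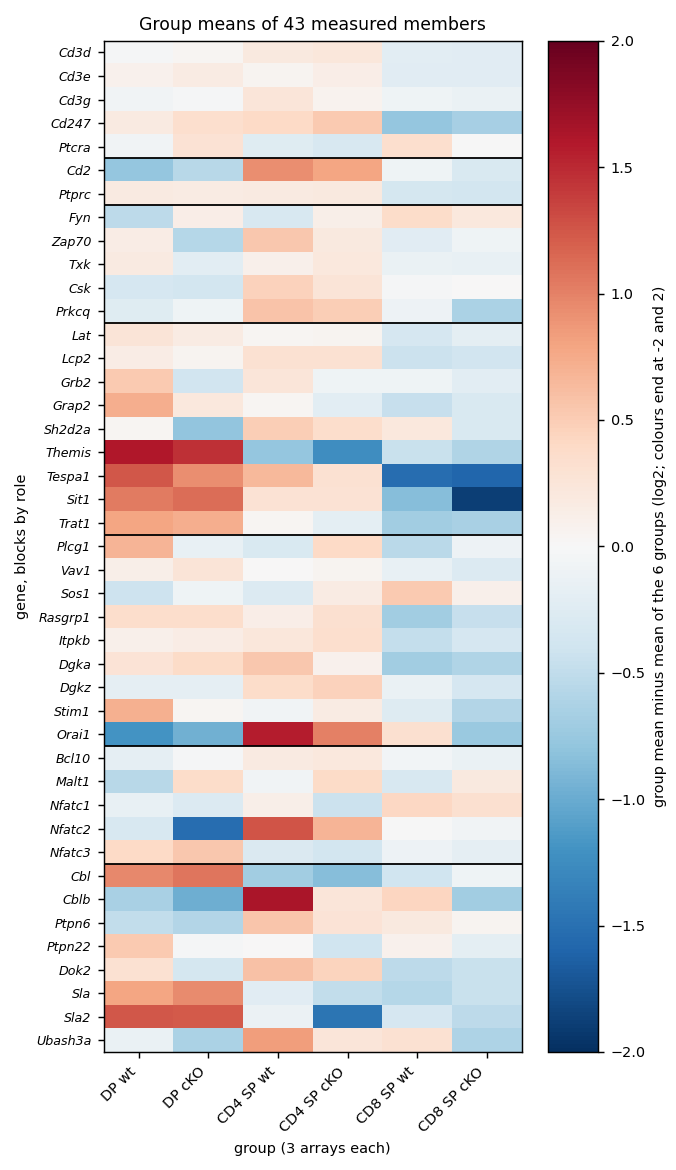
Group means of the 43 measured genes in the 6 groups (3 arrays each), as log2 differences from the mean of the 6 groups, in blocks by role from receptor chains at the top to inhibitors at the bottom. Red is higher and blue is lower; Themis and Sla2 are red in both DP groups and Orai1 and Cd2 in both CD4 SP groups.

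Of the 5 receptor genes, Cd247 alone was called. Cd247 encodes the zeta chain, which carries most of the receptor's signalling motifs. Its values were 9.06, 9.52 and 9.28 in wt DP, 9.56, 9.57 and 9.37 in wt CD4 SP and 8.30, 8.33 and 8.37 in wt CD8 SP cells. In cKO mice they were 9.53, 9.35 and 9.47, 9.66, 9.44 and 9.80 and 8.53, 8.38 and 8.43. All 6 CD8 SP arrays lay below all 12 others. Cd247 was 1.93-fold lower in wt CD8 SP than in DP cells (log2 difference -0.95 ± 0.20, limma adjusted p = 0.00769) and 2.24-fold higher in CD4 SP than in CD8 SP cells (1.17 ± 0.20, adjusted p = 0.00294). The cKO differences were -0.997 and 1.19, with adjusted p of 0.00555 and 0.00227 in limma. With median scaling in place of quantiles these 4 calls were lost, and with only the groups compared in the fit all but the wt CD4 SP against CD8 SP call were lost, at limma adjusted p of up to 0.159.

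The 3 CD3 chains, which assemble with the antigen-binding chains, stayed within narrow ranges. Cd3d read 10.92, 10.85 and 10.58 in wt DP, 10.89, 11.08 and 11.04 in wt CD4 SP and 10.45, 10.77 and 10.57 in wt CD8 SP cells, and 10.74, 10.85 and 10.93, 10.89, 11.07 and 11.17 and 10.67, 10.59 and 10.48 in cKO cells. The Cd3e readings were 10.51, 10.58 and 10.49, 10.39, 10.44 and 10.66 and 10.28, 10.26 and 10.12 in wt cells, and 10.70, 10.66 and 10.45, 10.57, 10.71 and 10.42 and 10.44, 10.18 and 10.03 in cKO cells, in the same order of populations. For both genes CD8 SP had the lowest mean in each genotype. The Cd3g values were 9.78, 10.10 and 9.55, 10.19, 10.30 and 9.90 and 9.77, 9.97 and 9.65 in wt, and 9.91, 9.90 and 9.80, 10.01, 9.98 and 9.90 and 9.80, 9.91 and 9.54 in cKO cells, and the 3 populations overlapped in both genotypes. No CD3 chain was called in any comparison, and the largest wt differences from DP were 0.32 ± 0.22 for Cd3g in CD4 SP (limma adjusted p = 0.516) and -0.31 ± 0.20 for Cd3e in CD8 SP cells (adjusted p = 0.396). Ptcra encodes the chain that pairs with TCR beta before TCR alpha is made. It read 6.55, 7.01 and 7.06 in wt DP, 6.91, 6.81 and 6.40 in wt CD4 SP and 7.26, 7.91 and 6.70 in wt CD8 SP cells, and 7.63, 7.56 and 6.55, 7.11, 6.64 and 6.14 and 7.23, 7.22 and 6.38 in cKO cells. The groups overlapped, and CD4 SP against DP was -0.17 ± 0.37 in wt (limma adjusted p = 0.887).

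Cd2, an adhesion and costimulatory receptor for CD48 in the mouse, was highest in CD4 SP cells. It read 8.29, 8.68 and 8.23 in wt DP, 10.08, 10.33 and 9.89 in wt CD4 SP and 8.91, 9.26 and 9.09 in wt CD8 SP cells. The cKO arrays gave 8.46, 9.06 and 8.36, 10.14, 10.19 and 9.58 and 9.02, 9.14 and 8.47. The 3 populations did not overlap in wt, and CD4 SP stood above both others in cKO. Cd2 was 3.25-fold higher in wt CD4 SP than in DP cells (1.70 ± 0.27, limma adjusted p = 0.000603) and 2.53-fold higher in cKO (1.34 ± 0.27, 0.00535). Over CD8 SP cells it was higher by 1.01 ± 0.27 in wt (adjusted p = 0.0491 in limma) and 1.09 ± 0.27 in cKO (0.0294). The wt call over CD8 SP was lost without any one of the 6 arrays compared, up to an adjusted p of 0.169, and without any one of 9 arrays of other groups. Its cKO counterpart was lost without any one of 3 arrays, up to 0.135. Ptprc, the CD45 phosphatase that keeps Lck able to act, averaged 9.74 ± 0.15 in wt DP, 9.73 ± 0.09 in wt CD4 SP and 9.20 ± 0.03 in wt CD8 SP cells. Its CD8 SP against DP difference of -0.54 ± 0.20 missed the threshold (limma adjusted p = 0.117).

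None of the 5 measured kinase genes was called in any of the 6 comparisons of populations. Fyn, a Src-family kinase that phosphorylates the receptor's motifs, read 5.26, 6.50 and 5.51 in wt DP, 5.30, 5.81 and 6.77 in wt CD4 SP and 6.54, 6.70 and 6.70 in wt CD8 SP cells. In cKO mice the Fyn values were 6.11, 6.76 and 6.36, 6.33, 6.29 and 6.59 and 6.50, 6.48 and 6.50. The wt CD8 SP arrays lay above the wt DP arrays by 0.89 ± 0.35 (limma adjusted p = 0.131). Zap70, the kinase that docks on the phosphorylated receptor, read 6.95, 7.15 and 6.67, 7.59, 7.23 and 7.09 and 6.61, 6.73 and 6.31 in the 3 wt populations, in the order DP, CD4 SP and CD8 SP. The cKO values of Zap70 were 6.07, 6.42 and 6.11, 7.14, 6.65 and 7.11 and 6.91, 5.79 and 7.37, with the widest spread in CD8 SP. CD4 SP over CD8 SP was 0.75 ± 0.33 for Zap70 in wt (limma adjusted p = 0.264). Csk, which phosphorylates the inhibitory site of Src-family kinases, averaged 8.89 ± 0.52 in wt DP, 9.69 ± 0.28 in wt CD4 SP and 9.21 ± 0.26 in wt CD8 SP cells. Prkcq, the protein kinase C theta of the NF-kB branch, averaged 7.53 ± 0.12, 8.36 ± 0.46 and 7.68 ± 0.51. The Tec-family kinase gene Txk averaged 6.37 ± 0.48, 6.29 ± 0.04 and 6.05 ± 0.05.

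The 9 adaptor genes held 5 of the 12 losses in wt CD8 SP cells. In wt CD8 SP against DP cells 5 of them were lower and none was higher, with a median difference of -1.20 where the median of all gene symbols was 0.14. In wt CD4 SP against DP cells 1 was lower, and the median was -0.60 against 0.06. Themis, a T cell adaptor needed for thymocyte selection in the mouse, read 8.91, 8.64 and 8.51 in wt DP, 7.28, 6.86 and 4.79 in wt CD4 SP and 7.19, 6.58 and 6.13 in wt CD8 SP cells. Its cKO values were 8.75, 8.23 and 8.66, 5.68, 5.74 and 6.10 and 6.33, 5.83 and 7.28. The 6 DP arrays lay above the 12 SP arrays. Themis was 5.21-fold lower in wt CD4 SP (-2.38 ± 0.50, limma adjusted p = 0.00635) and 4.17-fold lower in wt CD8 SP than in DP cells (-2.06 ± 0.50, adjusted p = 0.016). Array 3 of wt CD4 SP did not detect it, and without that array the wt CD4 SP difference was -1.62. Its wt CD8 SP call was lost without array 1 of DP or array 2 or 3 of CD8 SP, up to an adjusted p of 0.0748 in limma. The cKO differences were -2.71 (limma adjusted p = 0.00259) and -2.06 (0.0166), and the second was lost without any one of 4 of its 6 arrays, up to 0.0907.

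Tespa1, another adaptor needed for thymocyte selection in the mouse, passed detection on every DP and CD4 SP array but in none of the CD8 SP samples. It read 7.20, 7.63 and 7.24 in wt DP, 6.75, 6.99 and 6.54 in wt CD4 SP and 4.60, 4.84 and 4.31 in wt CD8 SP cells. The cKO readings were 7.35, 6.42 and 7.35, 6.44, 5.17 and 7.67 and 4.39, 4.88 and 4.31. Where no array of a group detects a probe, the fold is a bound, computed with the undetected values raised to the lowest detected value of their array. Tespa1 was at least 5.45-fold lower in wt CD8 SP than in DP cells (limma adjusted p = 0.000865) and at least 4.34-fold lower in cKO (0.00197). CD4 SP exceeded CD8 SP at least 3.6-fold in wt (adjusted p = 0.00999 in limma) and at least 2.83-fold in cKO (0.0213). The wt difference between SP populations gave 0.0504 without array 3 of CD8 SP, and the cKO one was lost without any one of 4 of its arrays, up to 0.0901, with differences of 1.28 to 2.52.

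Sit1 encodes a transmembrane adaptor that binds the phosphatase SHP-2, and Trat1 encodes TRIM, a transmembrane adaptor associated with the receptor. Trat1 read 9.67, 9.67 and 9.56 in wt DP, 8.69, 8.97 and 8.99 in wt CD4 SP and 8.70, 8.03 and 7.73 in wt CD8 SP cells, and 9.62, 9.55 and 9.54, 8.78, 8.73 and 8.43 and 8.29, 7.95 and 8.34 in cKO cells. DP arrays were above all SP arrays in both genotypes. Trat1 was 2.79-fold lower in wt CD8 SP than in DP cells (-1.48 ± 0.25, limma adjusted p = 0.0012) and 2.6-fold lower in cKO (0.00216). In CD4 SP cells the Trat1 difference was -0.75 ± 0.25 in wt (adjusted p = 0.0935 in limma) and -0.93 ± 0.25 in cKO (0.0375). That cKO call was lost without any one of its 6 arrays, up to 0.138. Sit1 averaged 7.62 ± 0.63 in wt DP, 6.87 ± 0.79 in wt CD4 SP and 5.72 ± 0.64 in wt CD8 SP cells, and its CD8 SP difference was -1.90 ± 0.43 (limma adjusted p = 0.01). The wt Sit1 call was lost without array 1 of DP or array 3 of CD8 SP, up to 0.0578. Of the wt CD8 SP arrays 2 of 3 detected the Sit1 probe used. No cKO CD8 SP array detected it, and by this probe Sit1 was at least 6.86-fold lower there than in cKO DP (0.000343 in limma) and at least 3.86-fold lower than in cKO CD4 SP cells (0.00638). The other tested Sit1 probe gave smaller differences in the same directions, -1.56 for cKO CD8 SP against DP and 0.95 for cKO CD4 SP against CD8 SP. Grap2, the GADS adaptor that joins SLP-76 to LAT, averaged 8.94 ± 0.35 in wt DP, 8.25 ± 0.29 in wt CD4 SP and 7.74 ± 0.20 in wt CD8 SP cells. It was lower in wt CD8 SP than in DP cells by 2.3-fold (-1.20 ± 0.29, limma adjusted p = 0.014), which was lost without array 1 of either group (up to 0.0759). In cKO the Grap2 difference was -0.52 ± 0.29 (0.372).

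Lat, the membrane adaptor on which the signalling complex is built, read 9.22, 9.21 and 9.27 in wt DP, 9.11, 9.05 and 8.88 in wt CD4 SP and 8.66, 8.58 and 8.69 in wt CD8 SP cells. Its cKO values were 9.17, 9.11 and 9.15, 9.09, 9.13 and 8.89 and 8.90, 8.63 and 8.80. The 6 CD8 SP arrays lay between 8.58 and 8.90, below the 6 DP arrays. Their wt difference from DP of -0.59 ± 0.19 missed the threshold (limma adjusted p = 0.0705). The other tested Lat probe, detected on 17 arrays, gave larger CD8 SP differences from DP, -2.95 in wt and -1.07 in cKO. In CD4 SP against DP it gave -0.69 in wt and -0.53 in cKO. Lcp2, the SLP-76 adaptor, averaged 9.09 ± 0.18, 9.25 ± 0.15 and 8.51 ± 0.09 in the 3 wt populations. Its wt CD8 SP difference from DP of -0.58 ± 0.20 also missed the threshold (0.0895 in limma), and the cKO difference was -0.45. A tested Lcp2 probe detected on 14 arrays gave -1.12 in wt and -1.68 in cKO. Another, detected on 3 arrays, gave -0.44 and -0.06. Grb2, which brings the exchange factor SOS to LAT, averaged 7.54 ± 0.31, 7.25 ± 0.11 and 6.93 ± 0.23. Sh2d2a, the T cell specific adaptor TSAd, averaged 7.87 ± 0.37, 8.33 ± 0.13 and 8.04 ± 0.12 in wt, and in cKO CD4 SP cells it was 1.14 ± 0.30 above DP (limma adjusted p = 0.0355). That call was lost without any one of 5 of its 6 arrays, up to 0.176.

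**Figure D2:**
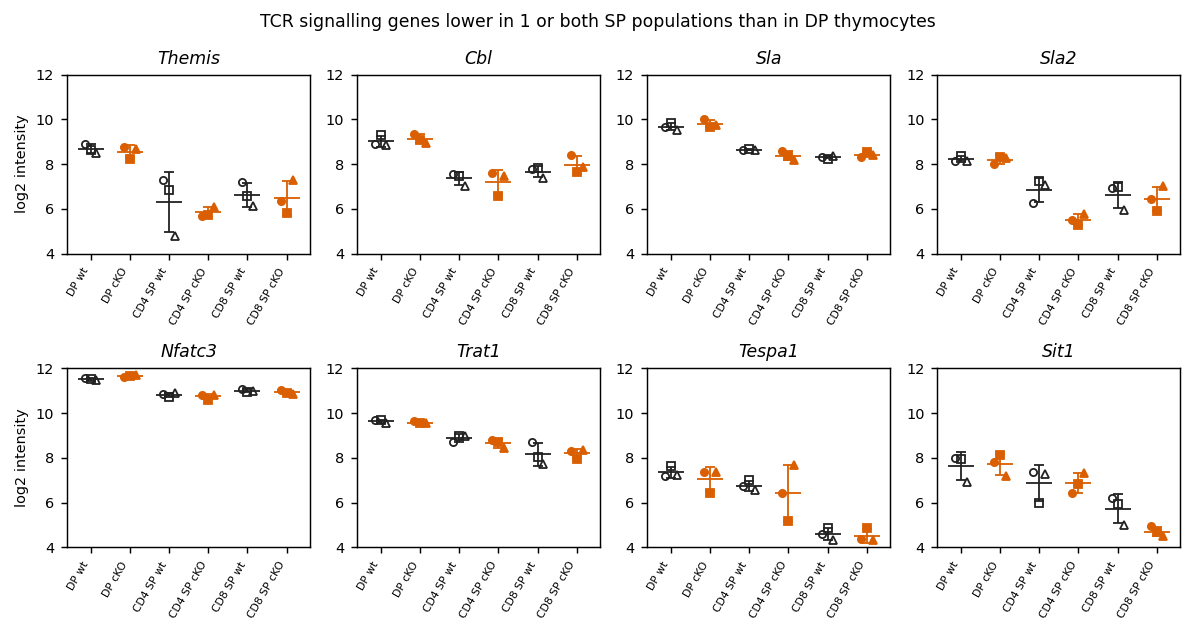
Log2 intensity of 8 genes on each array (circle, square and triangle are arrays 1, 2 and 3; open black wt, filled orange cKO), with the mean and standard deviation of 3 arrays. Themis, Cbl, Sla and Sla2 lie lower in both SP populations than in DP cells; Tespa1 and Sit1 are lowest in CD8 SP cells, and no CD8 SP array detected Tespa1.

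Among the 9 enzymes and calcium proteins, the calcium channel subunit Orai1 rose in both wt SP populations and in cKO CD4 SP cells, Rasgrp1 and Dgka fell in CD8 SP cells of both genotypes, and Plcg1 fell in wt CD8 SP cells. Orai1 forms the pore through which calcium enters after store release. It read 4.49, 4.85 and 4.70 in wt DP, where no array detected it, 7.08, 7.27 and 7.997 in wt CD4 SP and 6.20, 5.69 and 6.73 in wt CD8 SP cells. In cKO cells Orai1 read 5.34, 4.85 and 4.56, 7.06, 6.45 and 7.14 and 5.39, 5.03 and 4.96. The 3 wt populations did not overlap, while cKO DP and CD8 SP did. Against wt DP, Orai1 was at least 6.04-fold higher in CD4 SP (limma adjusted p = 2.67e-05) and at least 2.55-fold higher in CD8 SP cells (0.00662). In cKO, where 1 of 3 DP and 2 of 3 CD8 SP arrays detected it, the measured difference from DP was 1.97 ± 0.32 in CD4 SP (adjusted p = 0.000852 in limma) and it differed by 0.21 ± 0.32 in CD8 SP cells (0.834). CD4 SP exceeded CD8 SP by 1.24 ± 0.32 in wt (limma adjusted p = 0.0401) and 1.76 ± 0.32 in cKO (0.00363). The wt call between the SP populations was lost without any one of 5 of the 6 arrays compared (up to 0.173) or of 3 others. Stim1, the calcium sensor that opens this channel, averaged 9.98 in wt DP, 9.20 in wt CD4 SP and 9.02 in wt CD8 SP cells. On array 1 it read 11.78 in wt DP against 9.04 and 9.14 on the others, and array 1 was also the highest in wt CD4 SP, wt CD8 SP and cKO DP.

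Rasgrp1, an exchange factor that activates RAS in response to diacylglycerol, read 10.01, 9.92 and 10.02 in wt DP, 9.71, 9.76 and 9.85 in wt CD4 SP and 9.04, 9.01 and 8.76 in wt CD8 SP cells. In cKO mice Rasgrp1 read 10.005, 10.16 and 9.78, 10.02, 10.13 and 9.73 and 9.57, 9.03 and 8.89. Wt CD8 SP lay below both other wt populations, 2.06-fold under DP (-1.05 ± 0.23, limma adjusted p = 0.00832), and the cKO fold was 1.76-fold (0.0367). Between wt CD4 SP and CD8 SP its difference of 0.84 ± 0.23 had a limma adjusted p of 0.0526, and of 0.0484 with the chip as a block, which called it. The cKO CD8 SP call was lost without any one of 4 of its 6 arrays, up to 0.146. Dgka encodes a diacylglycerol kinase, which removes the lipid that Rasgrp1 answers to. It read 8.44, 8.90 and 8.10 in wt DP, 8.89, 8.67 and 8.65 in wt CD4 SP and 7.67, 7.74 and 7.12 in wt CD8 SP cells, and 8.81, 8.58 and 8.38, 8.38, 7.94 and 8.55 and 7.56, 7.42 and 7.81 in cKO cells. CD8 SP was lowest in both genotypes. Dgka differed by -0.97 ± 0.26 between wt CD8 SP and DP (limma adjusted p = 0.0299), by -0.99 ± 0.26 in cKO (0.0288), and by 1.23 ± 0.26 between wt CD4 SP and CD8 SP cells (0.0139). Each of these calls was lost without single arrays, 4, 4 and 2 of the 6 compared, up to 0.144, 0.13 and 0.0805. Plcg1, the phospholipase that makes diacylglycerol and inositol trisphosphate, was detected on 6 arrays. It averaged 5.63 ± 0.30 in wt DP and fell at least 1.64-fold in wt CD8 SP cells, where no array detected it (limma adjusted p = 0.0206), a call lost without any one of 3 arrays (up to 0.0951). In wt CD4 SP, where no array detected it either, Plcg1 had a limma adjusted p of 0.0742 against DP, and of 0.0321 with the chip as a block, which called it lower. In cKO the Plcg1 difference between CD8 SP and DP was 0.05. The other members of this group averaged, over the 3 wt populations in the order DP, CD4 SP and CD8 SP, 9.84, 9.73 and 9.57 for the exchange factor Vav1, 4.87, 5.001 and 5.80 for Sos1, 9.04, 9.18 and 8.48 for the inositol trisphosphate kinase Itpkb, and 7.86, 8.41 and 7.91 for the second diacylglycerol kinase Dgkz. None of these 4 was called in any comparison of populations.

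In the NF-kB and NFAT branch, Nfatc3 fell from DP to SP cells and Nfatc2 rose in cKO CD4 SP cells. Nfatc3, one of the calcium-activated transcription factors, averaged 11.51 ± 0.06 in wt DP, 10.81 ± 0.11 in wt CD4 SP and 11.002 ± 0.06 in wt CD8 SP cells, and 11.65 ± 0.03, 10.74 ± 0.13 and 10.93 ± 0.08 in cKO. DP arrays lay above all SP arrays, and the 4 other tested probes of the gene gave the same sign in the comparisons in which it was called. Nfatc3 was lower in CD4 SP than in DP cells by 1.63-fold in wt (limma adjusted p = 0.0346) and 1.88-fold in cKO (0.00686). In CD8 SP cells the fold was 1.43-fold in wt (0.109 in limma) and 1.64-fold in cKO (0.0276). These folds came from the probe with the highest mean, at -0.70 in wt CD4 SP and -0.51 in wt CD8 SP against DP. The 4 other tested probes fell further there, by -1.44, -1.90, -1.38 and -2.09 in wt CD4 SP. In wt CD8 SP they gave -2.04, -2.54, -0.79 and -1.42. The wt CD4 SP and the cKO CD8 SP calls were each lost without any one of their 6 arrays, up to 0.126 and 0.0838. Nfatc2 averaged 6.19 ± 1.32 in wt DP and 7.78 ± 0.15 in wt CD4 SP cells, with array 3 of DP at 4.76, and 4.99 ± 0.24 and 7.21 ± 0.62 in cKO, where 2 of 3 DP arrays detected it. It passed the threshold in cKO CD4 SP cells alone (2.22 ± 0.53, limma adjusted p = 0.0188, in wt 1.58 ± 0.53 and 0.0995), and that call was lost without any one of 4 arrays (up to 0.0844). With the mean of probes standing for Nfatc2 that call was also lost. The other tested Nfatc2 probes gave 0.84 and 0.42 in cKO CD4 SP against DP. Bcl10 and Malt1, partners in the complex that activates NF-kB, and Nfatc1 were not called. Their means in the 3 wt populations were 8.52, 8.88 and 8.64, then 5.17, 5.66 and 5.41, and 6.62, 6.88 and 7.18. In wt CD4 SP against DP the Nfatc1 probe used gave 0.26, and its other tested probes 0.59, 0.73, 0.997 and 1.51. In wt CD4 SP against CD8 SP these gave 0.41 to 2.06, where the probe used gave -0.30. The other tested probe of Malt1 gave 1.47 in wt CD4 SP against DP, in place of 0.48. That of Bcl10 gave 0.74, in place of 0.35.

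The 8 measured inhibitors moved in both directions. In wt CD4 SP against DP cells Cblb and Ptpn6 rose while Cbl, Sla and Sla2 fell, and in wt CD8 SP cells the same 3 fell and none rose. Cbl and Cblb are ubiquitin ligases that mark receptor-proximal proteins for removal. Cbl read 8.90, 9.30 and 8.86 in wt DP, 7.56, 7.48 and 7.03 in wt CD4 SP and 7.79, 7.82 and 7.38 in wt CD8 SP cells, and 9.35, 9.07 and 8.96, 7.59, 6.58 and 7.44 and 8.40, 7.62 and 7.88 in cKO cells. The DP arrays lay above every SP array. Cbl was 3.17-fold lower in wt CD4 SP (-1.66 ± 0.30, limma adjusted p = 0.00167) and 2.56-fold lower in wt CD8 SP cells (-1.36 ± 0.30, 0.00855), and in cKO 3.8-fold (0.000504) and 2.23-fold lower (0.0228). The cKO CD8 SP call was lost without any one of 4 of its 6 arrays, up to 0.112. Cblb moved the other way, with 5.61, 4.47 and 4.34 in wt DP, 7.10, 6.89 and 7.28 in wt CD4 SP and 6.36, 5.57 and 5.73 in wt CD8 SP cells. In cKO mice it read 4.42, 4.44 and 4.58, 4.86, 5.10 and 7.14 and 5.17, 4.62 and 4.51, and array 3 of cKO CD4 SP reached the wt level while arrays 1 and 2 did not. In wt, CD4 SP exceeded DP by 2.28 ± 0.47 for Cblb (limma adjusted p = 0.00534), where 1 of the 3 wt DP arrays detected the probe, so the size of this difference is not exact. In cKO the same difference was 1.22 ± 0.47 (adjusted p = 0.196 in limma), with no cKO DP array detecting the probe. The other tested Cblb probe, detected on 5 arrays, gave smaller differences in CD4 SP against DP, 0.66 in wt and 0.21 in cKO.

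Ptpn6, the SHP-1 phosphatase, read 7.95, 8.16 and 7.95 in wt DP, 9.26, 8.96 and 8.97 in wt CD4 SP and 8.51, 8.74 and 8.85 in wt CD8 SP cells. The cKO values were 8.21, 7.88 and 7.70, 8.999, 8.46 and 8.89 and 8.56, 8.49 and 8.63 in the same order. Every SP array stood above every DP array. Ptpn6 rose 2.06-fold in wt CD4 SP over DP cells (limma adjusted p = 0.00763) and 1.81-fold in cKO (0.034). The cKO call was lost without any one of 4 of its 6 arrays, up to 0.154, and in wt CD8 SP cells the difference of 0.68 ± 0.22 missed the threshold (0.0723 in limma). Sla and Sla2 encode the Src-like adaptors SLAP and SLAP-2, which lower receptor levels together with Cbl. Sla read 9.65, 9.82 and 9.51 in wt DP, 8.63, 8.66 and 8.65 in wt CD4 SP and 8.32, 8.24 and 8.34 in wt CD8 SP cells, and 9.998, 9.67 and 9.76, 8.58, 8.35 and 8.20 and 8.33, 8.53 and 8.42 in cKO cells. Its DP and SP arrays were separated in both genotypes with little spread. The fold below DP was 2.02-fold in wt CD4 SP (-1.01 ± 0.20, limma adjusted p = 0.00417), 2.56-fold in wt CD8 SP (-1.36 ± 0.20, 0.000491), 2.7-fold in cKO CD4 SP (0.000216) and 2.61-fold in cKO CD8 SP cells (0.000446). With the probe of lowest F-test p standing for Sla, the cKO CD4 SP call was lost (0.351 in limma). Sla2 read 8.15, 8.37 and 8.13 in wt DP, 6.25, 7.25 and 7.05 in wt CD4 SP and 6.95, 6.99 and 5.96 in wt CD8 SP cells. In cKO mice Sla2 read 7.997, 8.34 and 8.27, 5.51, 5.25 and 5.77 and 6.43, 5.91 and 6.999, so cKO CD4 SP lay lowest by this probe. Its differences from DP were -1.36 ± 0.34 (limma adjusted p = 0.0198) and -1.58 ± 0.34 (0.00736) in wt CD4 SP and CD8 SP, and -2.69 ± 0.34 (6.47e-05) and -1.76 ± 0.34 (0.00349) in cKO. Without array 1 or 2 of wt DP or array 1 of wt CD4 SP the first of these gave up to 0.108. The other tested Sla2 probe, detected on 13 arrays, gave -1.39 and -0.86 in wt and -1.32 and -1.99 in cKO. By that probe cKO CD8 SP lay lowest, at a mean of 4.76 against 5.43 in cKO CD4 SP. The remaining inhibitors were not called without the chip as a block. Ptpn22, the phosphatase that dephosphorylates Lck and ZAP-70, averaged 6.99 ± 0.12 in wt DP, 6.48 ± 0.25 in wt CD4 SP and 6.55 ± 0.21 in wt CD8 SP cells. The adaptor gene Dok2 averaged 7.24 ± 0.39, 7.52 ± 0.29 and 6.41 ± 0.37. Its CD4 SP over CD8 SP difference of 1.11 ± 0.30 in wt had a limma adjusted p of 0.0512, and of 0.0226 with the block, which called it. Ubash3a, of the Sts family, averaged 5.08 ± 1.16, 6.05 ± 0.57 and 5.51 ± 1.05.

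**Figure D3:**
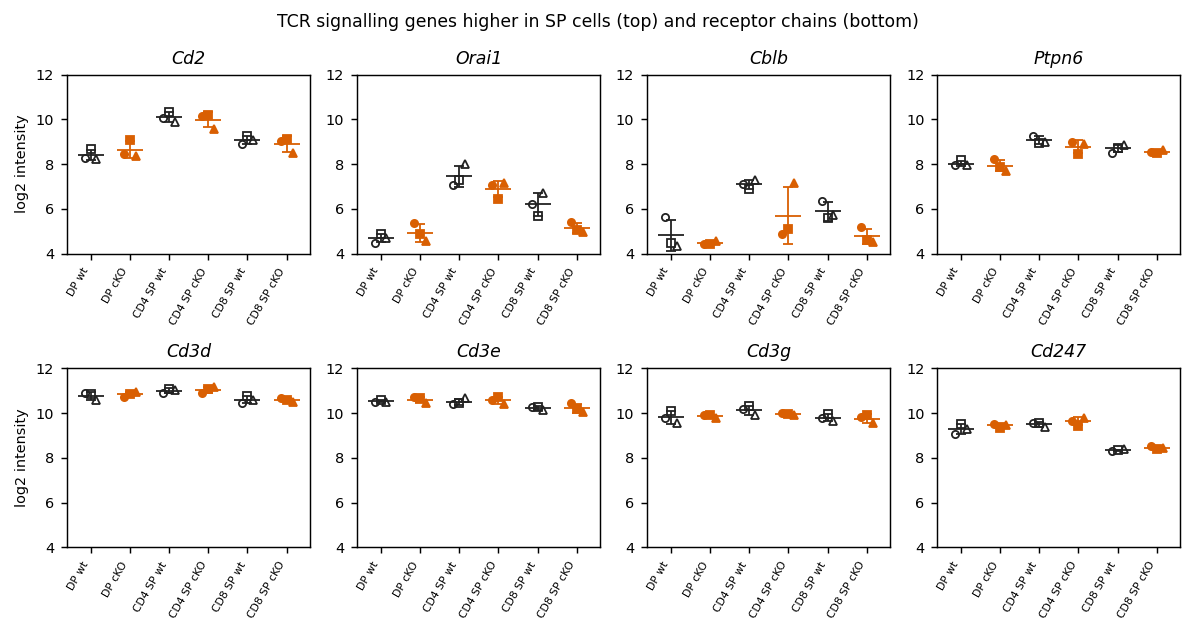
Log2 intensity of 4 genes with higher values in SP cells (top) and of the 4 measured CD3 and zeta chain genes (bottom) on each array, drawn as open black wt and filled orange cKO symbols (circle, square and triangle are arrays 1, 2 and 3) with the mean and standard deviation of 3 arrays. Orai1 and Cd2 peak in CD4 SP cells, Cd247 is low in all 6 CD8 SP arrays, and the CD3 chains vary little.

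In wt mice 5 genes were called in the same direction in both SP populations against DP. Themis, Cbl, Sla and Sla2 were lower and Orai1 was higher. Both comparisons used the same wt DP arrays, which favours agreement in sign. The share of all gene symbols called in both was not computed. For 4 of these 5 genes, chosen by these calls, the promoters are shown. They are RefSeq windows (GRCm38.p6), 250 bases before to 50 bases after the gene's start, printed on the gene's strand. Of the 46 genes, 37 matched an entry by symbol. Capitals mark CANNTG, the E-box core, on which E proteins act in thymocytes.
Themis, chr10:28668110-28668409, plus strand: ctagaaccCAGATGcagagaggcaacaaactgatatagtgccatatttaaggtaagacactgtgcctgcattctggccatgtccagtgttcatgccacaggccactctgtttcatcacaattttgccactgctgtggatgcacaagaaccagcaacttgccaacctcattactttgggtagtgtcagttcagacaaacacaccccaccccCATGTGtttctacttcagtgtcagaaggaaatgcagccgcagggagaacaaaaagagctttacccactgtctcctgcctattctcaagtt
Cbl, chr9:44233997-44234296, minus strand: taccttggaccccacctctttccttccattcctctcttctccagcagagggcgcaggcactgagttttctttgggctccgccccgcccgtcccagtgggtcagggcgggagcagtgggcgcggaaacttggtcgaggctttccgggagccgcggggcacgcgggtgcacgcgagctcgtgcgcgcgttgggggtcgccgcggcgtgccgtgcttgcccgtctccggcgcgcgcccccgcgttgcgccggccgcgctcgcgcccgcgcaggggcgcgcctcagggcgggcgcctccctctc
Sla2, chr2:156887172-156887471, minus strand: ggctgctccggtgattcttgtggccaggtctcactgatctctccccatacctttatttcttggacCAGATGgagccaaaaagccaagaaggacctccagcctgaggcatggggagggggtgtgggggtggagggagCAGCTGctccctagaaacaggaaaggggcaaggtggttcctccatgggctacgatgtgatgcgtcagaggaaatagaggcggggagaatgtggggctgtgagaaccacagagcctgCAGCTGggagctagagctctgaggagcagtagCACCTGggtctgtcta
Orai1, chr5:123014824-123015123, plus strand: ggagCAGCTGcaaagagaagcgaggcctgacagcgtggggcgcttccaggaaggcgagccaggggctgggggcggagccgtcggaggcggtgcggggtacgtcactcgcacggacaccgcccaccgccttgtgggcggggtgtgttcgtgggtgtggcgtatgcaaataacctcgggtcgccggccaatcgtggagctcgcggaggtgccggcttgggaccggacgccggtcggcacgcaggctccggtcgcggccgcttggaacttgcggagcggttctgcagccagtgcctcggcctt
On either strand CANNTG occurred 4 times in the Sla2 window, 2 times in Themis, 1 time in Orai1 and 0 times in Cbl. The GC box core GGGCGG, also searched on both strands, occurred 4 times in Cbl, 3 times in Orai1 and 0 times in Themis and Sla2; a match to one motif can share at most 1 base with a match to the other. CANNTG was present in 72.1% and GGGCGG in 35.9% of 27025 promoter windows of the same length, 1 per gene, and in 29 and 15 of the 37 matched windows here. These matches describe letters in a window and were not tested against the expression values.

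Between the SP populations the 5 calls in wt were Cd247, Cd2, Tespa1, Dgka and Orai1, all higher in CD4 SP. Of the 43 measured genes 35 had a higher mean in CD4 SP than in CD8 SP cells in wt and 34 in cKO, while 46.3% and 50.4% of all gene symbols did. The median difference over the 43 was 0.37 in wt and 0.35 in cKO, against -0.04 and 0.01 over all gene symbols. With the array's median intensity as a covariate 30 of the 43 lay above 0 in wt and 32 in cKO, and after scaling to the array median in place of quantiles 34 and 32. By role, 8 of 9 adaptors and 8 of 9 enzymes and calcium proteins were above 0 in wt. By its chosen probe the Fyn mean ran the other way, at -0.69 ± 0.35 in wt (limma adjusted p = 0.354), and so did Sos1 at -0.80 ± 0.38 (0.323). The other tested Fyn probe, detected on 5 arrays, gave the opposite sign, at 1.26 in wt. In cKO it gave 0.63, where the chosen probe gave -0.09.

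Against the wider pathway, 56 of 74 other listed TCR pathway genes were measured. In wt CD4 SP against DP cells 4 of the 56 rose and 2 fell, in wt CD8 SP against DP cells 2 rose and 7 fell, and in wt CD4 SP against CD8 SP cells 3 were higher and none lower. Over all gene symbols 6.23%, 7.76% and 3.53% were called in these comparisons. Pik3cd, a lymphocyte catalytic subunit of PI3-kinase, rose by 1.98 ± 0.31 in CD4 SP (limma adjusted p = 0.000498) and 1.83 ± 0.31 in CD8 SP cells (0.00131). Ppp3cc, a catalytic subunit of calcineurin, which activates NFAT, rose by 2.004 ± 0.38 (0.00292 in limma) and 2.05 ± 0.38 (0.00288). Dgke, a further diacylglycerol kinase, changed by -2.70 ± 0.34 (6.71e-05 in limma) and -2.14 ± 0.34 (0.000815). Ubash3b, which encodes the phosphatase Sts-1, rose by 1.92 ± 0.36 in CD4 SP against DP cells (limma adjusted p = 0.00239) and was 1.39 ± 0.36 higher in CD4 SP than in CD8 SP cells (0.0399). Itpr1, a calcium release channel of the endoplasmic reticulum, was -2.21 ± 0.47 in CD8 SP against DP cells (0.00769 in limma). The costimulatory receptor gene Cd28 was 1.46 ± 0.25 higher in CD4 SP than in CD8 SP cells (0.00236 in limma), and the transmembrane adaptor gene Lime1 1.64 ± 0.37 (0.02).

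In cKO mice the DP to SP differences were called in 11 genes in CD4 SP cells, 5 higher and 6 lower, where 5.15% of all gene symbols were called, 2.42% higher and 2.73% lower. In cKO CD8 SP cells 11 were lower and none higher, against 6.85% of all gene symbols, 3.3% higher and 3.55% lower. Between cKO CD4 SP and CD8 SP cells 5 were called, all higher in CD4 SP, against 4.02% of all gene symbols, 1.51% higher and 2.51% lower. As shares of the 43 genes, these cKO calls were 25.6%, 25.6% and 11.6%. The CD4 SP against DP calls in both genotypes numbered 8, which is 88.9% of the wt and 72.7% of the cKO calls. For CD8 SP against DP 10 were shared (76.9% and 90.9%), and for CD4 SP against CD8 SP 4 were shared (80% of each), all with the same sign. Over the 43 genes, the wt and cKO differences had a Pearson correlation of 0.87, 0.81 and 0.80 in these 3 comparisons, where all gene symbols gave 0.68, 0.63 and 0.56. Those are correlations across genes, which are not independent replicates, and the wt and cKO arrays shared chips but no samples. Calls in both genotypes also used a shared estimate of each probe's spread, from all 18 arrays, so their overlap adds no separate support. The share of all gene symbols called in both genotypes was not computed. The genes called in cKO alone were Sh2d2a, Trat1 and Nfatc2 in CD4 SP against DP, Nfatc3 in CD8 SP against DP, and Sit1 between the SP populations. Those called in wt alone were Cblb in CD4 SP against DP, Grap2, Plcg1 and Orai1 in CD8 SP against DP, and Dgka between the SP populations. The genotype by population interaction, which tests such a difference, called 0 of 43 genes, against 0% of all gene symbols (limma F-test, adjusted p under 0.05). At an unadjusted p under 0.05 there were 3 of 43 (6.98%), against 4.26% of all gene symbols.

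**Figure D4:**
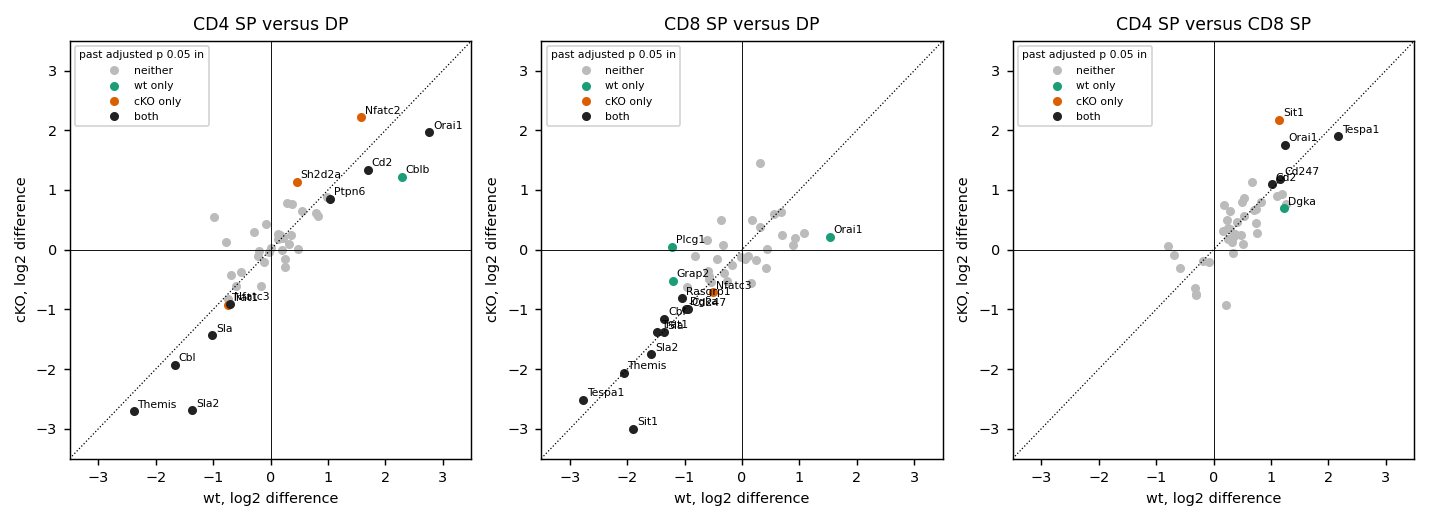
Log2 difference between populations in wt (horizontal) and cKO (vertical) for the 43 measured genes in the 3 comparisons of populations; black points passed an adjusted p of 0.05 in both genotypes, green in wt alone, orange in cKO alone, and the dotted line marks equal differences. Points called in both genotypes lie in the same quadrant, 8, 10 and 4 in the 3 panels.

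cKO and wt cells were compared within each population, the question the deletion poses for these thymocytes. No gene of the 43 passed the adjusted threshold in DP, CD4 SP or CD8 SP cells or over the mean of the 3 populations, where 0% of all gene symbols did (limma). At an unadjusted p under 0.05 there were 7, 3, 3 and 7 of the 43 (16.3%, 6.98%, 6.98% and 16.3%). Over all gene symbols the shares were 7.76%, 7.27%, 4.33% and 10.5%. All genes named in the rest of this paragraph missed the adjusted threshold. In DP cells the 4 smallest p belonged to Sh2d2a (-0.83 ± 0.30, limma adjusted p = 0.466), Plcg1 (-0.84 ± 0.31, 0.475), Grb2 (-0.91 ± 0.37, 0.523) and Nfatc2 (-1.20 ± 0.53, 0.559). Sh2d2a averaged 7.87 ± 0.37 in wt and 7.04 ± 0.68 in cKO DP cells, and its groups overlapped, as did those of Grb2 and Nfatc2. The other tested Nfatc2 probes gave -0.31 and 0.29 there. In CD4 SP cells they were Sla2 (-1.34 ± 0.34, limma adjusted p = 0.352), Cblb (-1.39 ± 0.47, 0.545), Plcg1 (0.71 ± 0.31, 0.62) and Orai1 (-0.56 ± 0.32, 0.718). Sla2 was lower on all 3 chips, by -0.73, -2.0003 and -1.29 as cKO minus wt, and the groups did not overlap, while its other tested probe gave the opposite sign. In CD8 SP cells they were Orai1 (-1.08 ± 0.32, limma adjusted p = 0.933), Sit1 (-1.02 ± 0.43, 1), Cblb (-1.12 ± 0.47, 1) and Sh2d2a (-0.50 ± 0.30, 1). The Orai1 chip differences were -0.81, -0.66 and -1.77. The other tested Sit1 probe gave the opposite sign, at 0.26. Over the mean of the populations they were Cblb (-0.95 ± 0.27, limma adjusted p = 0.24), Sh2d2a (-0.49 ± 0.17, 0.3), Ptpn22 (-0.41 ± 0.15, 0.316) and Sla2 (-0.51 ± 0.19, 0.335). In cKO CD4 SP cells the means of the 8 measured inhibitors, each by its chosen probe, lay below wt, from -1.39 to -0.14 with a median of -0.34, none of them past the threshold, where 52.4% of all gene symbols lay above wt. Other tested probes of the same genes lay above wt there, at 0.20 and 0.67 for Sla, 0.26 for Sla2 and 0.06 for Ptpn6. In DP and CD8 SP cells 6 and 5 of the 8 lay below wt. The median over the 43 genes was -0.01, -0.13 and -0.06 in DP, CD4 SP and CD8 SP cells, against 0.05, 0.02 and 0.00 over all gene symbols.

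**Figure D5:**
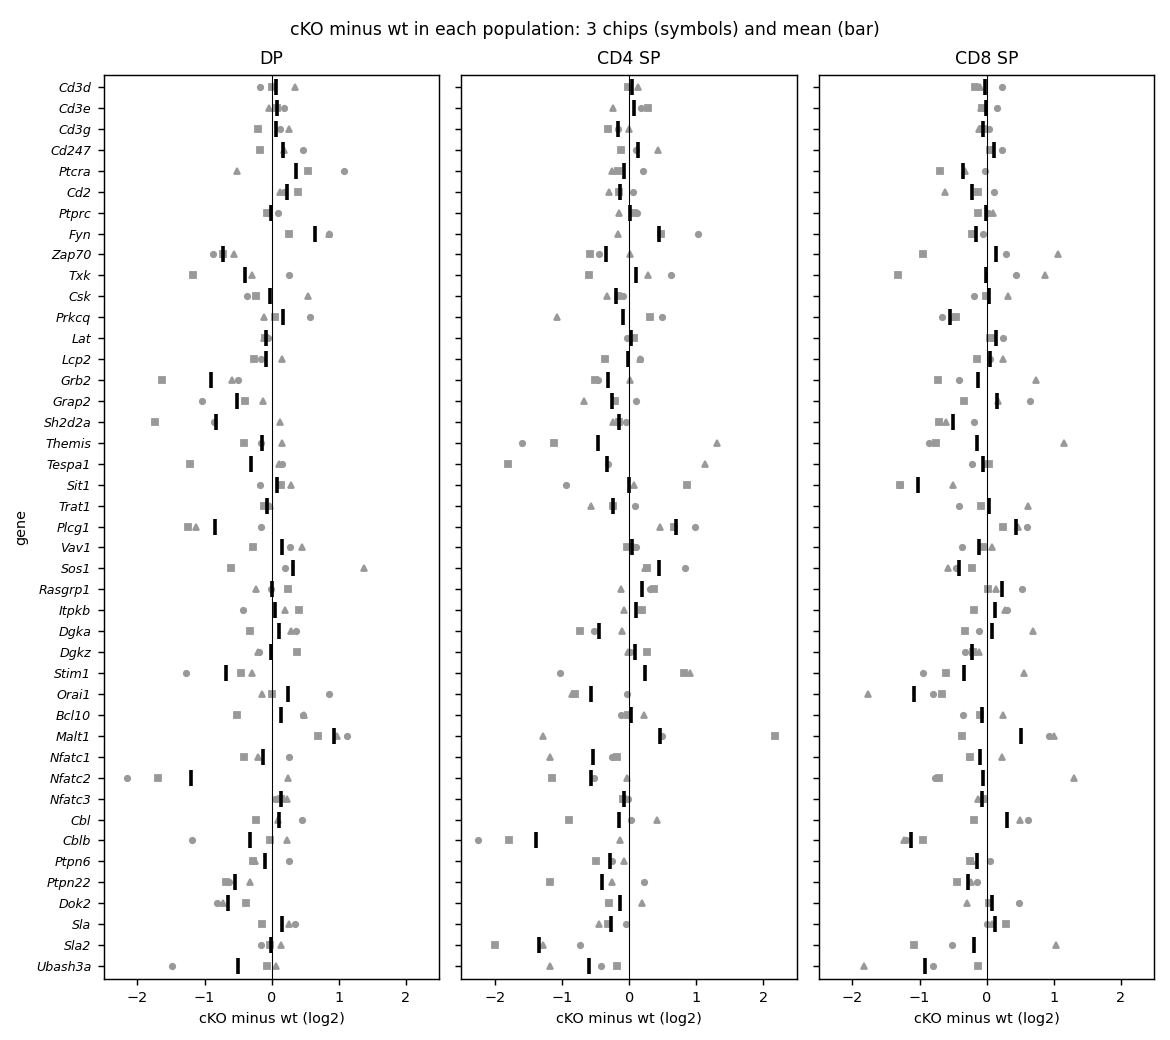
Difference cKO minus wt (log2) for each of the 43 measured genes in DP, CD4 SP and CD8 SP cells; grey circles, squares and triangles are chips 1, 2 and 3, and the black bar is their mean. The chips scatter on both sides of 0 for most genes, and for Cblb in CD4 SP cells they span -2.24 to -0.14.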

How the data were processed

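Per the file headers, the deposited bead file holds linear mean bead intensities, not normalized and with no background subtracted, each with a deposited detection p-value. The sources used here do not say how that p-value was computed. The authors' normalized intensities, whose method these sources do not name, entered as an alternative. RNA (200 ng per array, per the labels' protocols) was amplified and biotin-labelled.

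The function neqc of limma 3.58.1 (R 4.3.3) took the background from the detection p-values, added an offset of 16, equalised quantiles between arrays and returned log2 values. Plots were made in matplotlib 3.10.9. Of 46237 probes, 35784 had a gene symbol in the annotation and 26676 were tested, those with a detection p under 0.05 on 3 arrays or more. A gene was its tested probe with the highest mean; the 45 annotated genes had 102 probes, 86 tested. A probe named Slap was left out, since that older symbol fits more than 1 gene. One linear model with a mean for each of the 6 groups, 12 residual degrees of freedom and moderated tests gave the 11 comparisons, adjusted over all tested probes (Benjamini-Hochberg, 0.05). Array replicates correlated at 0.848 to 0.908 (Pearson, log2). The number of arrays limits the precision.

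Genes, lists, tests and the rule for naming genes were chosen with earlier results of these data known. Every measured gene is named. Values in all arrays are given for the receptor chains, Fyn, Zap70 and Lat and for the 12 other genes with the smallest p among those called in a wt comparison of populations. In comparisons of genotypes the 4 genes with the smallest p are named, and of other pathway genes up to 4 called per wt comparison.

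Array numbers in the labels marked a shared chip, per the file headers, so each chip held all 6 groups. Residuals of arrays with one number but different groups correlated at a median of 0.05 (45 pairs, 11 over 0.1), against -0.02 for different numbers (90 pairs, 7 over 0.1). The main model had no block, and the blocked p is given where it changes a call.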

Additional observations from a re-analysis of the deposited data

How the results depend on the processing

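In all, 34 alternative settings were run, and no difference of a named gene with a call changed sign in any. Numbers of genes called are given in the order wt CD4 SP against DP (9), wt CD8 SP against DP (13), wt CD4 SP against CD8 SP (5), cKO CD4 SP against DP (11), cKO CD8 SP against DP (11) and cKO CD4 SP against CD8 SP (5). With the replicate block they were 10, 13, 7, 11, 11 and 5, with every call kept, and the additions were Plcg1 in the first and Rasgrp1 and Dok2 in the third. Numbers that moved by over 1.5 times are named next, and the cause was not tested. Without background correction the counts were 14 in wt CD4 SP against DP, 20 in wt CD8 SP against DP, and 14 (wt) and 12 (cKO) between the SP populations. With the authors' normalized values they were 20 in wt CD8 SP against DP and 12 and 12 between the SP populations. A trended robust variance gave 20, and 11 and 11 between the SP populations. With only the groups compared, where fewer arrays estimate the spread, they were 4, 2, 6, 6 and 2 in wt CD4 SP against DP, wt CD4 SP against CD8 SP and the 3 cKO comparisons. Median scaling gave 1 in wt CD4 SP against CD8 SP and 7, 6 and 3 in cKO. With the background level as a covariate they were 8 in wt CD8 SP against DP, 3 in wt CD4 SP against CD8 SP and 6 in cKO CD8 SP against DP. Between the SP populations the wt and cKO counts were 10 and 9 with an offset of 50, 9 and 10 with no detection filter, 8 and 8 with a strict one, with a random block of genotype and number and at a threshold of 0.1. In wt they were 8 with array weights, 9 with the mean of probes and 8 with the probe of lowest F-test p. Without all 3 cKO arrays of number 3 the cKO counts were 6, 6 and 0.

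Leaving out one array at a time gave 7 to 10, 9 to 14, 2 to 6, 7 to 11, 6 to 12 and 3 to 5. Counts moved by over 1.5 times without array 1 (2), 2 (3) or 3 (3) of wt CD4 SP, 2 (3) or 3 (2) of wt CD8 SP, 2 of wt DP (3) or 2 of cKO CD8 SP (3) in wt CD4 SP against CD8 SP. In cKO CD4 SP against DP this held without array 2 of DP or 1 or 3 of CD4 SP (7 each), in cKO CD8 SP against DP without array 1 (6) or 2 (7) of DP or 2 of CD8 SP (6), and between cKO SP populations without array 1 of CD4 SP or 3 of CD8 SP (3 each). Every comparison of genotypes and the interaction kept 0 calls throughout; the lowest adjusted p, for Cblb over the mean of populations, was 0.0533. Over the named genes and all alternatives, 2198 results stayed on their side of the threshold and 178 fell short of it. The first number includes genotype comparisons, which had no call to lose, and a looser threshold of 0.1, which cannot end a call. It also includes runs without arrays of groups not compared, so these numbers do not measure robustness. Median scaling shifted the median of all tested probes in wt CD8 SP against DP from 0.09 to 0.21, in wt CD4 SP against CD8 SP from -0.02 to -0.12 and in cKO CD8 SP against DP from 0.01 to 0.12; under it 7 of 43 genes, in place of 19, lay above 0 in cKO against wt DP cells. Dim probes limit Plcg1, Ubash3a, Cblb and Sos1, detected on 6, 8, 10 and 11 of 18 arrays. Among the genes named, median scaling ended the wt calls of Ptpn6 and Nfatc3 in CD4 SP against DP, of Cd247, Rasgrp1 and Dgka in CD8 SP against DP, and of Cd247, Cd2, Dgka and Orai1 in CD4 SP against CD8 SP cells. In cKO it ended those of Sh2d2a, Trat1, Nfatc3 and Ptpn6 in CD4 SP against DP, of Cd247, Rasgrp1, Dgka, Nfatc3 and Cbl in CD8 SP against DP, and of Cd247 and Cd2 between the SP populations; the cause was not tested. With only the groups compared, the wt calls lost were Themis, Nfatc3, Ptpn6, Sla and Sla2 in CD4 SP against DP, Cd247 and Dgka in CD8 SP against DP, and Cd2, Dgka and Orai1 between the SP populations. In cKO this setting ended the calls of Cd2, Sh2d2a, Trat1, Nfatc3 and Ptpn6 in CD4 SP against DP. For cKO CD8 SP against DP it ended those of Cd247, Rasgrp1, Dgka, Nfatc3 and Cbl. Between the cKO SP populations Cd247, Cd2 and Tespa1 were lost.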
